A study of Mus musculus with 60 samples.

Results

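A set of 8 genes of fatty acid handling that the peroxisome proliferator-activated receptors (PPARs) are known to control, Cpt1a, Pdk4, Angptl4, Acaa2, Crot, Ephx2, Plin2 and Acadm, were followed in the mouse colon around the clock. The genes were chosen by name as known targets, with earlier results of these data known. Contrasts of the members with all genes are therefore descriptions. They are 8 of the 27179 genes in the count table and 8 of the 18057 that passed the filter on low counts, and all 8 members passed it. RNA sequencing had been performed on a 5 mm piece of mid-colon from male DBA/1 mice in which arthritis had been induced with collagen (CIA) and from naïve mice. CIA was started at 9 to 10 weeks of age with bovine type II collagen in Complete Freund's adjuvant and boosted with collagen in saline on day 21, both at ZT6, where ZT is the number of hours after lights on. Tissue was collected 7 days after the first symptoms, and naïve mice, which shared cages with the arthritic ones and ate chow freely as these did, were sampled at matched times. The 60 mice formed 12 groups of 5, with CIA and naïve mice at ZT0, ZT4, ZT8, ZT12, ZT16 and ZT20 and lights off at ZT12. The immunisation and the joint disease cannot be told apart in this design, and each mouse was sampled once.

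PPARs are nuclear receptors that bind fatty acids and their derivatives, pair with retinoid X receptors, and bind DNA at direct repeats of a hexamer. In tissues that burn fat they raise the transcription of enzymes that carry fatty acids into mitochondria and peroxisomes, shorten them, and coat or mobilise lipid droplets, and in fasting they drive the supply of acetyl-CoA from which ketone bodies are made. In the gut epithelium, dietary and microbial fatty acids are both fuel and ligands for these receptors, and feeding times and the circadian clock give many of the target genes a daily rhythm.

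Total counts ran from 31382664 to 57564488 per CIA library and from 25840240 to 61425974 per naïve library, and values are given as CPM, counts relative to the library total after scaling for library composition. Colon epithelium markers were abundant in every library, with a summed level of 26830 to 59980 CPM in naïve and 27080 to 52300 CPM in CIA mice. The whole wall had been sequenced, and its other layers differed between the treatments: all 20 smooth muscle markers and 11 of 12 enteric neuron markers were higher in CIA, and 11 of 12 macrophage markers were lower (edgeR quasi-likelihood test, Benjamini-Hochberg adjusted p below 0.05). Naive ZT0 replicate 5 and CIA ZT12 replicate 2 stood apart with skeletal muscle scores (mean log2 CPM of 11 markers) of 2.98 and 4.97. In bulk tissue, fewer cells of a type and less RNA per cell cannot be told apart. The p-values measure the spread between these mice.

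Compared per kilobase of exon, the members spanned a wide range of levels in the colon. The length was that of all annotated exons of a gene, overlaps counted once, so the order depends on this choice. Without division by length Acadm was above Acaa2, with means of 206.8 and 141.8 CPM in naïve mice. Acaa2, the mitochondrial thiolase that releases acetyl-CoA at the end of each round of β-oxidation, was at 93.6 CPM per kb in naïve and 105.1 CPM per kb in CIA mice. Acadm, the medium-chain acyl-CoA dehydrogenase that opens a round, followed at 52.9 and 56.5 CPM per kb, and Acaa2 was above Acadm in all 30 naïve and all 30 CIA libraries. Plin2, which coats lipid droplets, was at 39.8 and 45.5 CPM per kb, and Cpt1a, which makes long-chain acylcarnitines for entry into mitochondria, was at 31.1 CPM per kb in both. The middle of the order was not fixed within mice: Acadm exceeded Plin2 in 25 naïve and 22 CIA libraries, and Plin2 exceeded Cpt1a in 22 and 25. Ephx2, the soluble epoxide hydrolase that hydrolyses fatty acid epoxides, was at 13.2 and 16.1 CPM per kb, below Cpt1a in every library. Crot, the peroxisomal carnitine octanoyltransferase, was at 8.62 and 8.29 CPM per kb and was lower than Ephx2 in 30 naïve and 29 CIA libraries. Pdk4, the kinase that switches off pyruvate dehydrogenase when fat is burned, was at 5.27 and 7.18 CPM per kb and was below Crot in 26 and 24 libraries. Angptl4, a secreted inhibitor of lipoprotein lipase, was the lowest at 1.276 and 1.32 CPM per kb, below Pdk4 in 29 naïve and 30 CIA libraries.

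The members also differed in how much mice of one treatment varied. Crot had a coefficient of variation over the 30 mice of 7.01% in naïve and 9.75% in CIA, and Acadm 10.1% and 9.94%. Pdk4 had 115.6% and 72.0%, and Angptl4 134.3% and 78.1%, so that for these genes single mice carried much of the group mean. The plot of levels by time of day shows the individual mice.

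**Figure D1:**
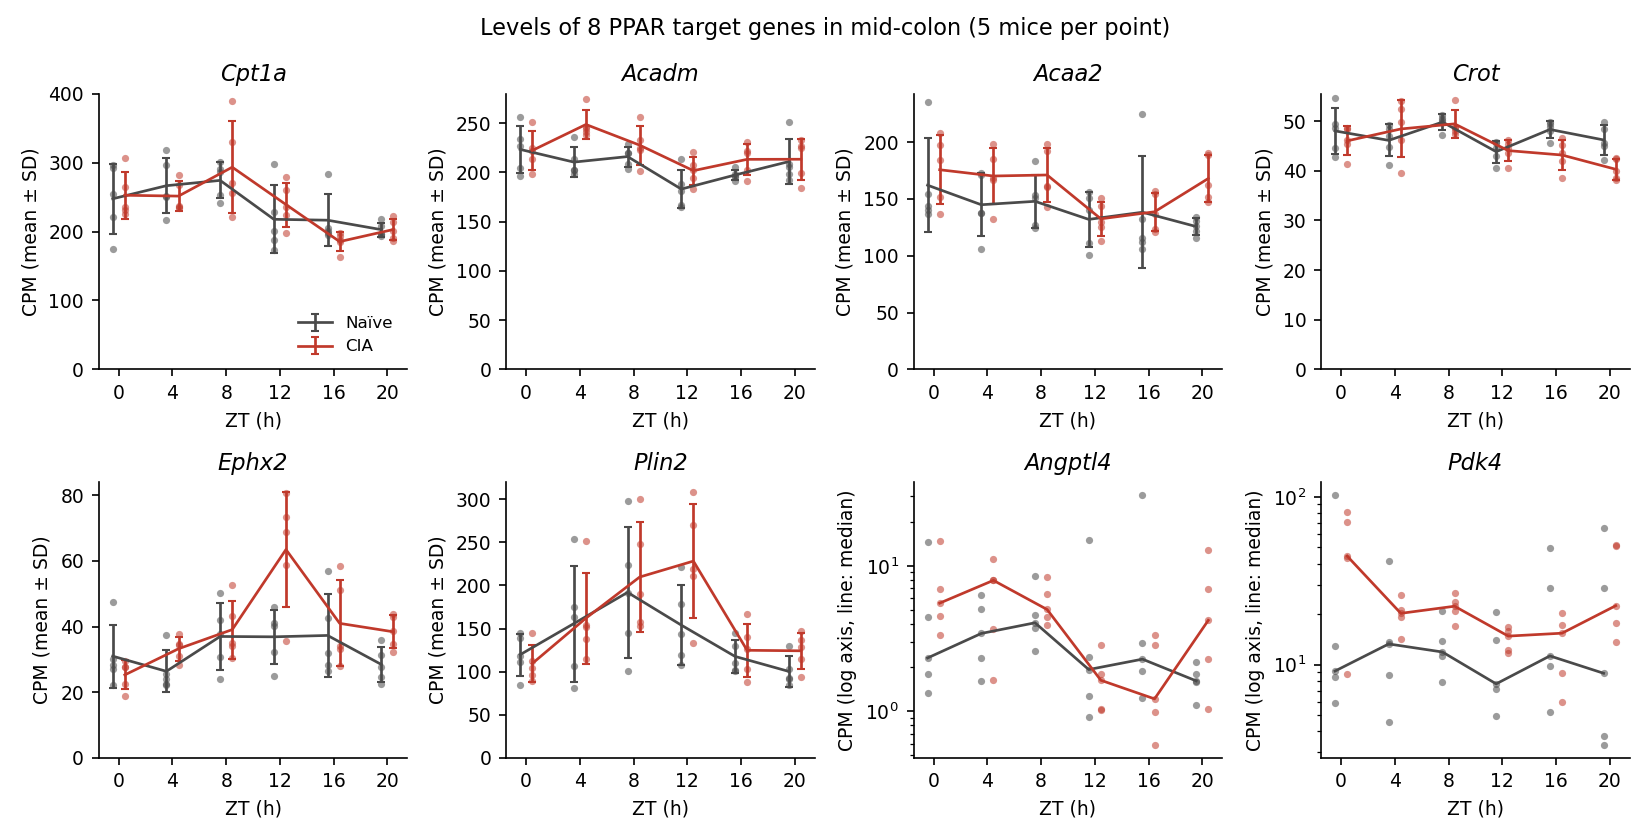
Levels of the 8 members in CPM (vertical axes; log axes for Pdk4 and Angptl4) against time of day in hours after lights on, 1 point per mouse, 5 mice per treatment and time. Lines join means with error bars of 1 SD, or medians for Pdk4 and Angptl4. Crot in naïve mice stays between 40.5 and 54.7 CPM, while Angptl4 in naïve mice spans 0.918 to 30.9 CPM.

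Pooled over the 6 times, 3 of the 8 members were higher in CIA colon than in naïve colon and none was lower, against 17.6% of all genes tested called higher and 20.4% called lower (edgeR, adjusted p below 0.05). None of the 8 was lower at an unadjusted p below 0.05 either, nor with DESeq2 or limma-voom. The count of 3 ran from 0, without Naive ZT12 replicate 3, to 4, without Naive ZT0 replicate 5, when each mouse was left out in turn. The 3 were Acadm, Acaa2 and Ephx2, and all 3 differences were small. The median log2 difference, CIA minus naïve, was 0.13 over the 8 members and −0.025 over all genes.

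Acadm had a lowest, median and highest level of 165.2, 204.1 and 255.9 CPM in naïve mice and of 183.3, 222.3 and 274.5 CPM in CIA mice. The treatments overlapped over most of their range. The log2 difference was 0.10 (SE 0.038, 95% interval 0.022 to 0.17, adjusted p = 0.0374, n = 30 per treatment, edgeR).

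Acaa2 had values of 101, 137.2 and 235.5 CPM in naïve mice and of 113.4, 156.1 and 207.9 CPM in CIA mice, with the highest of all values in a naïve mouse, Naive ZT0 replicate 5. The log2 difference was 0.17 (SE 0.069, 95% interval 0.032 to 0.30, adjusted p = 0.0486, edgeR), just past the threshold. The call was kept in 27 of the 60 fits that left out 1 mouse.

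Ephx2 had values of 22.1, 30.4 and 56.98 CPM in naïve mice and of 18.9, 34.7 and 80.6 CPM in CIA mice. The CIA mice reached further in both directions. The log2 difference was 0.29 (SE 0.11, 95% interval 0.063 to 0.51, adjusted p = 0.0407, edgeR), and it was held in 41 of 60 fits that left out 1 mouse.

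The smooth muscle score ran from 8.12 to 10.3 in naïve and from 8.98 to 10.7 in CIA mice. When this score was added as a covariate the differences were 0.16 for Acadm (adjusted p = 0.0407) and 0.52 for Ephx2 (adjusted p = 0.0288), and that of Acaa2 was 0.12 (adjusted p = 0.453). Most calls over all genes were lost with this covariate, which left 375 higher and 363 lower, against 3179 and 3681 without it. Each of the 3 calls was lost when some single times of day were left out: Ephx2 without ZT4, ZT12 or ZT20, at 0.15 without ZT12 (adjusted p = 0.279); Acaa2 without ZT4, ZT8 or ZT20, at 0.13 without ZT20 (adjusted p = 0.236); and Acadm without ZT4 or ZT16, at 0.078 without ZT4 (adjusted p = 0.122).

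The other members did not pass the pooled test. Cpt1a was at 237.7 ± 44.5 CPM in naïve and 237.7 ± 48.2 CPM in CIA mice (SD, n = 30), with a 95% interval of the log2 difference from −0.14 to 0.14. Crot was at 47.1 ± 3.30 and 45.2 ± 4.41 CPM, with an interval from −0.12 to 0.0067 (adjusted p = 0.161). These intervals bound the pooled difference of both carnitine acyltransferases closely.

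Plin2 was at 139.9 ± 53.5 CPM in naïve and 159.8 ± 62.5 CPM in CIA mice, with an interval of the log2 difference from −0.066 to 0.45 (adjusted p = 0.253). Pdk4 ran from 3.31 through a median of 11.2 to 103.1 CPM in naïve mice and from 5.99 through 19.7 to 81.6 CPM in CIA mice. The highest Pdk4 value of all was in Naive ZT0 replicate 5, one of the libraries with skeletal muscle RNA. The log2 difference was 0.44 (95% interval −0.11 to 1.00, adjusted p = 0.215); without that library it was 0.69 (adjusted p = 0.0305, edgeR) and passed the test.

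Angptl4 ran from 0.918 through a median of 2.32 to 30.9 CPM in naïve mice and from 0.584 through 3.79 to 14.7 CPM in CIA mice. The naïve group held both the lower median and the highest single mouse. Its log2 difference was 0.049 with a wide interval from −0.58 to 0.67 (adjusted p = 0.920).

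**Figure D2:**
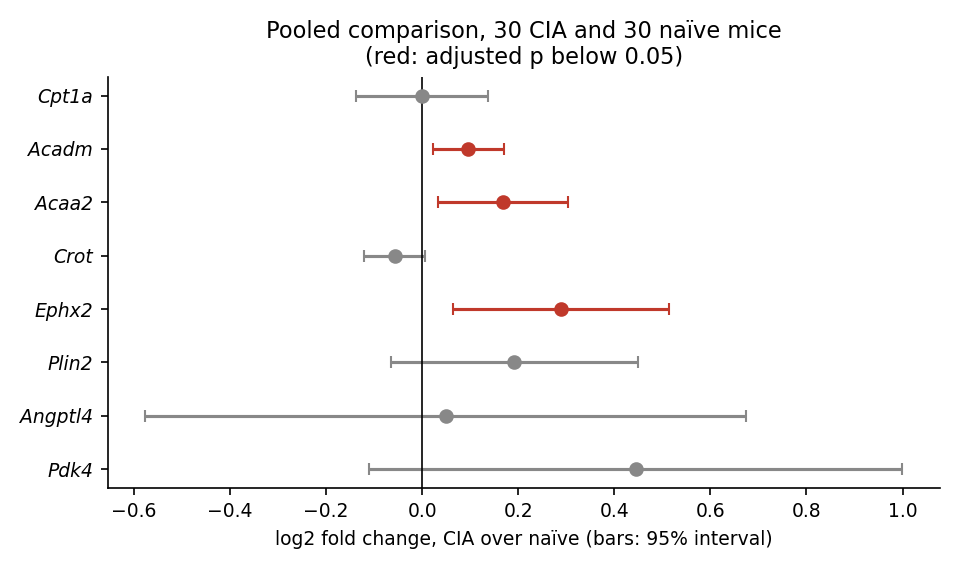
Log2 difference of each member between CIA and naïve colon (CIA minus naïve, horizontal axis), pooled over the 6 times, as points with 95% intervals from the edgeR fit; red marks an adjusted p below 0.05. The interval of Acadm runs from 0.022 to 0.17 and that of Angptl4 from −0.58 to 0.67.

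A daily rhythm, fitted as a 24 h cosine to log2 CPM, was called in 3 of 8 members in naïve mice and in 7 of 8 in CIA mice, against 36.9% and 29.7% of all genes tested (limma, adjusted p below 0.05). Cpt1a, Plin2 and Acadm were rhythmic in both treatments, Angptl4, Acaa2, Crot and Ephx2 passed in CIA only, and Pdk4 passed in neither. The fitted amplitude, the distance from the mean to the peak on the log2 scale, was larger in CIA for 8 of 8 members, against 42.9% of all genes, for which the median was 0.18 in the naïve group and 0.15 in the arthritic one. For none of the 8 did the test of the difference in rhythm pass (edgeR, 2 degrees of freedom, 0.0222% of genes called), nor did it with limma. At an unadjusted p below 0.05 the edgeR test held for Angptl4 (0.00723) and Crot (0.0132), each with an adjusted p of 0.731, so a rhythm in CIA only was not shown for any member.

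A model selection that weighs 5 rhythm patterns by the Schwarz criterion placed Cpt1a, Acaa2, Ephx2, Plin2 and Acadm in the class with the same rhythm in both treatments, which held 34.7% of all genes. It placed Crot (weight 0.969) and Angptl4 (weight 0.843) in the class with a rhythm in CIA only, which held 2.40% of genes, and Pdk4 (weight 0.602) among the arrhythmic genes, which were 35.7%. The limma test and the model selection thus gave different answers for Acaa2 and Ephx2. In the 60 fits that left out 1 mouse, the class was lost in 26 for Pdk4, 11 for Acaa2, 7 for Ephx2 and 1 for Angptl4. For Angptl4 this was the fit without Naive ZT16 replicate 4, where the weight of the CIA-only pattern was 0.441, below the minimum of 0.6. Among the other alternatives, a stricter minimum weight of 0.8 included, the class changed in 7 of 13 for Pdk4 and 3 of 13 for Acaa2. It changed in 2 of 13 for Ephx2 and 2 of 12 for Angptl4, and was kept in all 13 for Cpt1a, Crot, Plin2 and Acadm.

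**Figure D3:**
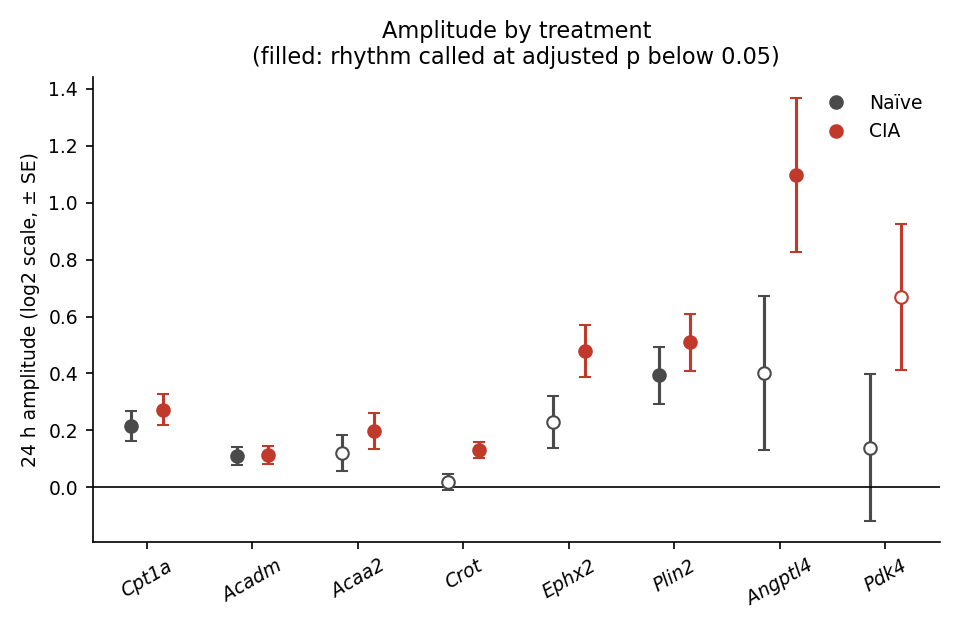
Amplitude of the fitted 24 h rhythm on the log2 scale for each member in naïve and CIA mice, with error bars of 1 SE from the limma fit; filled points are rhythms with an adjusted p below 0.05. All 8 amplitudes are larger in CIA, by little for Acadm (0.11 and 0.11) and by more for Crot (0.017 and 0.13).

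The promoters of the 3 members rhythmic in both treatments are shown, so that genes of a like pattern can be compared. Each run covers 250 bases before and 50 bases after the start given in the RefSeq table on GRCm38.p6, read along the gene's strand. For Cpt1a and Plin2 this start lies inside the outer bounds of the gene given here, and for Acadm at its outer end. An entry was used for 5 of the 8 members. Capitals mark matches to the motifs searched on both strands: AGGTCA, the hexamer bound by PPARs and other nuclear receptors; AGGTCANAGGTCA, the direct repeat, with up to 2 mismatches in its fixed bases; CACGTG, the E-box of the clock proteins; and TTATGNAA, the D-box. The windows lie at chr19:3323051-3323350 on the plus strand for Cpt1a, chr4:86670010-86670309 on the minus strand for Plin2 and chr3:153944594-153944893 on the minus strand for Acadm.
Cpt1a: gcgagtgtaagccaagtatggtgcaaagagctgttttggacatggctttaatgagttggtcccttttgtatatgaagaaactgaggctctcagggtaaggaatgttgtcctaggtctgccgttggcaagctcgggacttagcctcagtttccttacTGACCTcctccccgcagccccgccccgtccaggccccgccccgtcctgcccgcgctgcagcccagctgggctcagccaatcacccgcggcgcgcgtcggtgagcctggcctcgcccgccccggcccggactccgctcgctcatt
Plin2: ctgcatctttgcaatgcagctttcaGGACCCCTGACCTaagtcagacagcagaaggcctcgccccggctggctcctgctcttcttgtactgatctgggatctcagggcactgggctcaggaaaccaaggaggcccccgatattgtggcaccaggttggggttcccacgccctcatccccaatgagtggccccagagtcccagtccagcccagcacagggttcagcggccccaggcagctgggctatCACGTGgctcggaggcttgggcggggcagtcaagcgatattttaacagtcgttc
Acadm: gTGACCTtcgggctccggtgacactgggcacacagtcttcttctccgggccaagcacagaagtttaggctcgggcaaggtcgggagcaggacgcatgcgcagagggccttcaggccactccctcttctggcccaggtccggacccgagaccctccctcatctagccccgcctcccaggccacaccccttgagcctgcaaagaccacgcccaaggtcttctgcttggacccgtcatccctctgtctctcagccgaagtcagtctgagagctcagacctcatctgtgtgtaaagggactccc
The hexamer, read on the opposite strand as TGACCT, was found once in each, at position −94 in Cpt1a, −218 in Plin2 and −249 in Acadm, counted from the start base as 0. In Plin2 the hexamer is the right end of a direct repeat with 2 mismatches, GGACCCCTGACCT, at position −225, and an E-box lies at position −4. The windows of Pdk4 and Crot held none of the motifs. Of 32851 promoter windows of the same length, 16.3% held the hexamer, 3.86% the direct repeat, 7.15% the E-box and 3.38% the D-box, and a match is a run of letters and no evidence of binding.

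Cpt1a (chromosome 19, 3322326 to 3385735, plus strand, GRCm38.p6) carries out the step that controls how fast long-chain fatty acids enter mitochondria. Its mean level was highest at ZT8, at 274.4 ± 26.1 CPM in naïve and 293.6 ± 66.4 CPM in CIA mice (SD, n = 5). Its lowest means were at ZT20 in naïve mice, 202.9 ± 10.3 CPM, and at ZT16 in CIA mice, 185.5 ± 13.3 CPM. The rhythm was nearly the same in both treatments, with an amplitude of 0.22 in naïve mice (SE 0.054, adjusted p = 0.0051) and 0.27 in CIA mice (SE 0.054, adjusted p = 0.000393, limma). The fitted peaks lay 5.28 h and 5.78 h after lights on, in the middle of the light phase, when mice rest and eat little. At ZT16 the 5 CIA mice had 193.0, 163.3, 184.7, 188.4 and 197.8 CPM and the naïve mice 194.6, 198.3, 204.8, 284.2 and 201.2 CPM. Only the highest CIA mouse reached into the naïve range, and the difference of −0.22 (SE 0.13) had an adjusted p of 0.558 (edgeR).

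Crot (chromosome 5, 8966033 to 8997146, minus strand) hands medium-chain fatty acids shortened in peroxisomes to carnitine for export. In naïve mice its 24 h rhythm was not called, with an amplitude of 0.017 (SE 0.028, adjusted p = 0.870, limma). The naïve means still ran from 43.8 CPM at ZT12 to 49.8 CPM at ZT8. In CIA mice a rhythm was called, with an amplitude of 0.13 (SE 0.028, adjusted p = 0.00116, limma). The difference between the 2 rhythms did not pass its test (edgeR, adjusted p = 0.731). The CIA peak of Crot was 6.05 h after lights on, close to that of Cpt1a at 5.78 h, and the trough-to-peak change was 1.20-fold. The CIA means were 48.4 ± 5.74 CPM at ZT4, 49.5 ± 2.80 CPM at ZT8 and 40.3 ± 2.12 CPM at ZT20.

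The treatments parted for Crot at night. At ZT20 the naïve mice had 48.5, 49.8, 45.1, 42.1 and 45.6 CPM and the CIA mice 39.9, 42.3, 42.7, 38.1 and 38.6 CPM. All but the lowest naïve mouse lay above every CIA mouse. Crot was the only member called at ZT20, where 13% of genes were called (log2 difference −0.20, SE 0.065, adjusted p = 0.037, edgeR), and the call held in 46 of 60 fits that left out 1 mouse. In a fit to the 10 libraries of ZT20 alone the difference was −0.15 (adjusted p = 0.175). At ZT16 the difference was −0.16 (adjusted p = 0.341), while at ZT8 and ZT12 it was −0.011 and 0.0073.

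Acadm (chromosome 3, 153922353 to 153944643, minus strand) takes the first step of β-oxidation for medium-chain fatty acids, the chain length that Crot sends on from peroxisomes. It had a shallow rhythm in both treatments, with amplitudes of 0.11 in naïve mice (adjusted p = 0.0181) and 0.11 in CIA mice (SE 0.032 in both, adjusted p = 0.0169, limma) and peaks 1.32 h and 3.57 h after lights on. The naïve call was lost without Naive ZT0 replicate 4 (adjusted p = 0.0517) and the CIA call without CIA ZT4 replicate 5 (adjusted p = 0.0516).

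At ZT4 the naïve mice had 202.3, 235.5, 213.4, 198.5 and 202.5 CPM of Acadm and the CIA mice 241.1, 245.6, 243.7, 238.2 and 274.5 CPM. Every CIA mouse lay above every naïve mouse, and how many of all genes separated so at ZT4 was not counted. The log2 difference of 0.24 (SE 0.077) had an adjusted p of 0.0839 (edgeR), in a comparison where 0.858% of genes were called. At ZT0 and ZT20 the log2 differences were −0.0072 and 0.016.

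Acaa2 (chromosome 18, 74779212 to 74806207, plus strand) had a higher mean in CIA at all 6 times. The gap was widest at ZT20, where the naïve mice had 130.4, 126.5, 134.2, 115.9 and 121.6 CPM and the CIA mice 147.0, 162.6, 188.3, 190.8 and 151.4 CPM. The groups did not overlap, and how many of all genes separated so at ZT20 was not counted. The log2 difference was 0.42 (SE 0.16, adjusted p = 0.0673, edgeR), at a time when 13% of genes were called. At ZT12 and ZT16 the differences were 0.0060 and 0.0034. Its amplitude was 0.12 in naïve mice (adjusted p = 0.265) and 0.20 in CIA mice (SE 0.063, adjusted p = 0.0391, limma), and the CIA call held in 50 of 60 fits without 1 mouse. Without Naive ZT16 replicate 4, which had 224.9 CPM against 106.2 to 132.4 CPM in the other mice of its group, the naïve amplitude was 0.18 and was called as well (adjusted p = 0.0387).

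Pdk4 (chromosome 6, 5483351 to 5496278, minus strand) spares glucose by blocking the entry of pyruvate into the citric acid cycle. At ZT0 the naïve mice had 12.9, 9.16, 5.89, 8.41 and 103.1 CPM and the CIA mice 71.1, 43.3, 8.85, 44.4 and 81.6 CPM. Here 4 of 5 CIA mice exceeded 4 of 5 naïve mice, and 1 mouse of each treatment ran against its group. The log2 difference was 0.84 (SE 0.65, adjusted p = 0.525, edgeR), at a time when 0.0222% of genes were called.

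The CIA means of Pdk4 ran from 49.8 ± 28.3 CPM at ZT0 through 14.3 ± 2.18 CPM at ZT12 and 13.6 ± 5.90 CPM at ZT16 to 31.33 ± 18.63 CPM at ZT20. The CIA amplitude was 0.67 (SE 0.26, adjusted p = 0.107, limma), a trough-to-peak change of 2.53-fold with a peak 0.617 h after lights on. Without CIA ZT0 replicate 3, the mouse at 8.85 CPM, it was 0.81 and passed the test (adjusted p = 0.0404). In naïve mice the amplitude was 0.14 (adjusted p = 0.897).

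Plin2 (chromosome 4, 86626910 to 86670217, minus strand) rises in most tissues when fatty acids enter faster than they are burned. Its rhythm was the strongest among the members called in both treatments, with an amplitude of 0.39 in naïve mice (SE 0.10, adjusted p = 0.00595) and 0.51 in CIA mice (SE 0.10, adjusted p = 0.000354, limma). The peaks lay 8.09 h and 9.48 h after lights on, later than those of Cpt1a. In CIA mice the change from trough to peak was 2.03-fold.

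At ZT12 the naïve mice had 107.7, 178.8, 118.8, 221.2 and 143.6 CPM of Plin2 and the CIA mice 210.7, 133.3, 218.6, 308.7 and 270.1 CPM. In CIA the mean was 209.8 ± 63.4 CPM at ZT8 and 228.3 ± 66.4 CPM at ZT12, while the naïve mean was 192.0 ± 75.6 CPM at ZT8 and 154.0 ± 46.4 CPM at ZT12. The difference at ZT12, 0.57 (SE 0.25), had an adjusted p of 0.139 (edgeR).

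Angptl4 (chromosome 17, 33774900 to 33781575, minus strand) holds back the uptake of fat from lipoproteins. It had the largest CIA amplitude of the 8, at 1.10 (SE 0.27, adjusted p = 0.00504, limma), a 4.58-fold change with a peak 2.47 h after lights on. In CIA mice the means were 7.01 ± 4.50 CPM at ZT0, 6.49 ± 3.82 CPM at ZT4 and 5.63 ± 1.81 CPM at ZT8, against 1.67 ± 0.750 CPM at ZT12 and 1.80 ± 1.22 CPM at ZT16. The naïve amplitude was 0.40 (SE 0.27, adjusted p = 0.448). At ZT20 the CIA mean was 5.467 ± 4.705 CPM. In CIA mice the level was thus low at ZT12 and ZT16 and higher at the other times, late night included.

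The night times ZT16 and ZT20 show how far single mice set the Angptl4 comparison. At ZT16 the naïve mice had 2.94, 1.89, 1.23, 30.9 and 2.28 CPM and the CIA mice 3.33, 2.87, 0.991, 1.22 and 0.584 CPM. The difference of −2.13 (SE 0.73, adjusted p = 0.27, edgeR, 0.00554% of genes called) was −0.22 without Naive ZT16 replicate 4, the mouse at 30.9 CPM. At ZT20 the naïve mice had 1.81, 2.172, 1.59, 1.10 and 1.62 CPM and the CIA mice 4.22, 2.27, 6.93, 12.9 and 1.04 CPM. All but 1 of the CIA mice lay above every naïve mouse, and the difference was 1.72 (SE 0.73, adjusted p = 0.10).

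Ephx2 (chromosome 14, 66084372 to 66124522, minus strand) removes epoxide derivatives of polyunsaturated fatty acids. Its fitted peak lay at nightfall, 12.5 h after lights on in naïve and 12.6 h in CIA mice. The amplitude was 0.48 in CIA mice (SE 0.092, adjusted p = 0.000245), a 1.94-fold change, and 0.23 in naïve mice (SE 0.092, adjusted p = 0.11, limma). Without Naive ZT0 replicate 5 the naïve amplitude was 0.29 and passed the test (adjusted p = 0.0298).

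At ZT12 the naïve mice had 45.9, 40.1, 25.1, 40.96 and 32.3 CPM of Ephx2 and the CIA mice 68.9, 35.6, 58.7, 73.4 and 80.6 CPM. Of the CIA mice, 4 lay above every naïve mouse, and the low one, CIA ZT12 replicate 2, was the library with the most skeletal muscle RNA; the part of that RNA in its value was not tested. Ephx2 rose 1.72-fold (log2 difference 0.78, SE 0.22, adjusted p = 0.017, edgeR) and was the only member called at ZT12, where 9.28% of all genes were. The call was held in 57 of 60 fits that left out 1 mouse and was lost in a fit to the 10 libraries of ZT12 alone (0.79, adjusted p = 0.0547). At ZT0 the difference was −0.29 (adjusted p = 0.505) and at ZT20 0.43 (adjusted p = 0.17).

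No member was called at ZT0, ZT4, ZT8 or ZT16 by the edgeR test, where 0.0222%, 0.858%, 0.0332% and 0.00554% of genes were called. At an unadjusted edgeR p below 0.05, the test held for Acadm at ZT4 (0.0028) and for Angptl4 (0.00532) and Crot (0.0155) at ZT16. The test of whether the treatment difference varied with time called 0% of all genes, 817 of which had an unadjusted p below 0.05. Among the members, Angptl4 (0.0044), Ephx2 (0.0257) and Crot (0.0403) were below that level, with an adjusted p of 0.965 each.

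Several members varied together from mouse to mouse. Over 60 mice, Ephx2 and Plin2, which both peaked late in the light phase or at nightfall, were correlated with r = 0.661 and rho = 0.644 (0.567 within naïve and 0.71 within CIA mice, 0.662 after taking out the group means, and 0.591 without the 2 mice farthest from the median). Pdk4, Angptl4 and Acaa2 were correlated in all 3 pairs: Pdk4 and Acaa2 had r = 0.627 and rho = 0.592, Angptl4 and Acaa2 r = 0.620 and rho = 0.548, and Pdk4 and Angptl4 r = 0.551 and rho = 0.540. Without the 2 farthest mice these were 0.560, 0.590 and 0.522, and within treatments they lay between 0.507 and 0.694. After taking out the group means the same r were 0.545, 0.515 and 0.498. For Pearson's r all 4 had a Benjamini-Hochberg adjusted p of 0.000136 over 68 relations, from a raw p of 1e-05, the smallest that 100000 permutations can give. The permutations moved mice across all groups, so these p-values also count shared differences between times and treatments. For rho the adjusted p was the same except for Pdk4 and Angptl4 (0.000255). Cpt1a was tied more weakly to members of both kinds, with r = 0.496 and rho = 0.529 for Angptl4 (permutation adjusted p = 0.000529 for r), 0.438 and 0.438 for Acaa2 (0.00315), 0.433 and 0.463 for Crot (0.00306) and 0.386 and 0.357 for Plin2 (0.0112). Within naïve and CIA mice these r were 0.599 and 0.404, 0.563 and 0.352, 0.421 and 0.470, and 0.284 and 0.495, and without the 2 farthest mice 0.523, 0.417, 0.390 and 0.316. After taking out the group means they were 0.390, 0.410, 0.181 and 0.202, so that those with Crot and Plin2 were smaller among mice of the same group. Some pairs ran against each other. After taking out the group means, r was −0.489 for Pdk4 and Acadm, −0.408 for Pdk4 and Plin2 and −0.380 for Acaa2 and Plin2. Over all mice these r were −0.106, −0.299 and −0.198, and none passed (permutation adjusted p = 0.595, 0.0785 and 0.259).

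Angptl4, Pdk4 and Acaa2 also varied with marker scores of cell types, which are RNA levels and not counts of cells. Angptl4 was higher in mice with a higher adipocyte score (r = 0.547, rho = 0.573, permutation adjusted p = 0.000136). That r was 0.552 within naïve and 0.534 within CIA mice, 0.593 after taking out the group means and 0.555 without the 2 farthest. The adipocyte score holds Fabp4, Plin1, Cidec and Lipe, which are also in the lists of fatty acid uptake or lipid droplet genes used here. It is therefore not separate from the genes of fat handling. The summed level of the 12 adipocyte markers ran from 272.4 to 720.6 CPM in naïve and from 256.0 to 804.2 CPM in CIA mice; 2 were higher in CIA, 2 were lower, and of the defining genes Adipoq was at 0 in 5 libraries, Plin1 in 7 and Lep in 10. Naive ZT16 replicate 4, with the highest Angptl4, had an adipocyte score of 4.94, among 0.614 to 4.50 in the other mice of its group. Angptl4 was also lower in mice with a higher colon epithelium score (r = −0.515, rho = −0.386; −0.548 within naïve and −0.512 within CIA mice; −0.457 without the 2 farthest; permutation adjusted p = 0.000255 for r and 0.0134 for rho). The adipocyte and the epithelial score were each tried as a covariate. Over the 10 alternatives other than leaving out 1 library, with these among them, the Angptl4 amplitude in CIA mice ran from 0.82 to 1.24. The rhythm kept its call in all of them (limma, highest adjusted p = 0.0282). The part of adipocyte or epithelial RNA in the Angptl4 values was not tested beyond that. Acaa2 followed the adipocyte score with r = 0.377 and rho = 0.358 (0.387 and 0.316 within treatments, 0.396 without the 2 farthest, permutation adjusted p = 0.0144 for r) and the B and plasma cell score with r = −0.405 and rho = −0.361 (−0.302 and −0.373 within treatments, −0.347 without the 2 farthest, adjusted p = 0.00774 for r).

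Pdk4 was higher in mice with a higher smooth muscle score (r = 0.512, rho = 0.602, permutation adjusted p = 0.000255 for r). That r was 0.276 within naïve and 0.626 within CIA mice, 0.387 after taking out the group means and 0.558 without the 2 farthest. Pdk4 was lower in those with a higher B and plasma cell score (r = −0.593, rho = −0.600, permutation adjusted p = 0.000227 for r). Here r was −0.592 and −0.500 within treatments, −0.559 after taking out the group means and −0.579 without the 2 farthest. When the smooth muscle score was a covariate the pooled log2 difference of Pdk4 was −0.23 and that of Angptl4 −0.22, against 0.44 and 0.049 without it. Plin2 ran the other way, with r = 0.429 and rho = 0.458 against the B and plasma cell score (0.592 within naïve and 0.479 within CIA mice; 0.454 without the 2 farthest; permutation adjusted p = 0.00374). The summed level of these 10 markers was 756.0 to 2004 CPM in naïve and 466.8 to 1143 CPM in CIA mice, and 4 of them were lower in CIA.

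**Figure D4:**
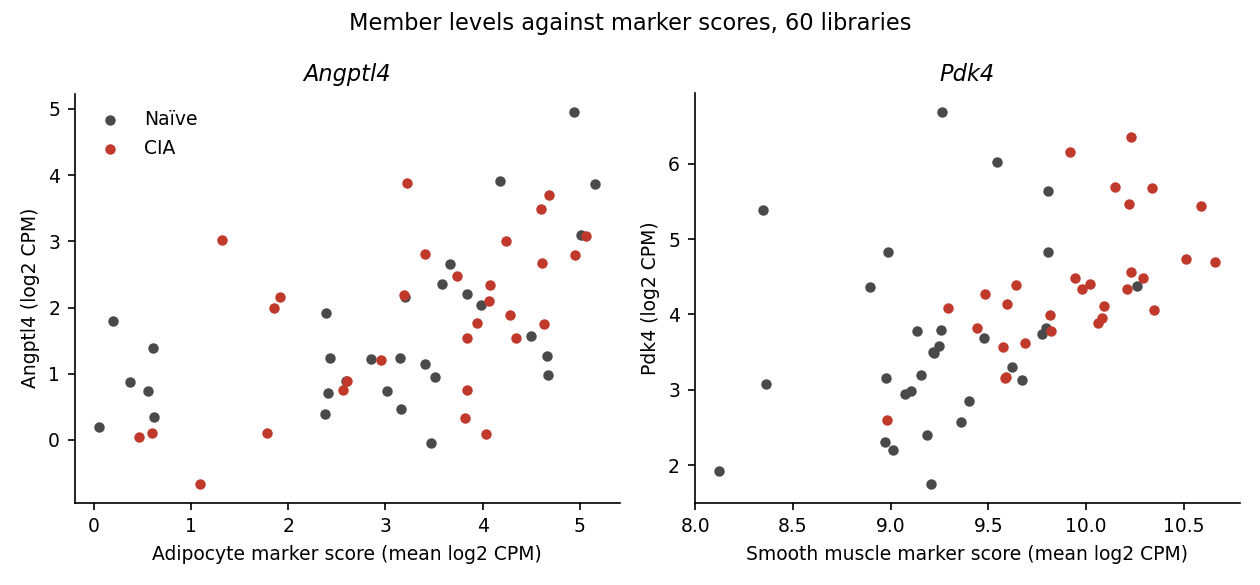
Log2 CPM of Angptl4 against the adipocyte score and of Pdk4 against the smooth muscle score, 1 point per mouse (30 naïve, 30 CIA); a score is the mean log2 CPM of the marker genes. Angptl4 rises with the adipocyte score over 0.0556 to 5.16 in naïve mice, and CIA mice lie to the right on the smooth muscle axis, at 8.98 to 10.7 against 8.12 to 10.3.

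Of the 3 PPAR receptors, only Ppard passed the pooled test. Ppara, the receptor of fasting and fat oxidation, differed by −0.050 (SE 0.14, adjusted p = 0.801) and followed a rhythm with an amplitude of 0.49 in the naïve group (0.36 in CIA) that peaked 16.2 h and 17.4 h after lights on, in the night. Pparg, the receptor abundant in colon epithelium and fat, differed by −0.075 (SE 0.082, adjusted p = 0.490). Ppard, which is expressed in most tissues, was lower in CIA (−0.30, SE 0.051, adjusted p = 1.01e-05, edgeR). Like most calls over all genes, this call was lost when the smooth muscle score entered the fit (−0.14, adjusted p = 0.154). Of 12 receptors and partners 3 were lower and none higher.

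The rest of the pathway was read by the same pooled test, which called 17.6% of all genes higher and 20.4% lower, and its counts are a description of each list. In the carnitine shuttle 2 of 8 genes were higher and none lower, among them Cpt1c, the brain form of the transferase (0.33, SE 0.070, adjusted p = 0.000206), and Slc25a20, the carrier that takes acylcarnitines through the inner membrane (0.31, SE 0.10, adjusted p = 0.0161). Slc25a20 shared the light-phase rhythm of its neighbour Cpt1a, with amplitudes of 0.41 and 0.47 and peaks 6.78 h and 7.47 h after lights on. Of 17 genes of mitochondrial fat oxidation 2 were higher, both of them members (Acaa2 and Acadm), and 3 were lower, among them Eci1, an enoyl-CoA isomerase (−0.18, SE 0.040, adjusted p = 0.000268). When the smooth muscle score entered the fit, with which 375 of all genes were higher and 363 lower, none of these 3 named genes kept its call. Cpt1c was at −0.011 (adjusted p = 0.940), Slc25a20 at 0.32 (adjusted p = 0.151) and Eci1 at −0.15 (adjusted p = 0.0785).

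Of 18 genes of peroxisomal oxidation 2 were higher and 3 lower, among them Ehhadh, the bifunctional enzyme (−0.28, SE 0.097, adjusted p = 0.017). Of 6 genes of ketone body metabolism none was higher and 1 was lower, Acat1, the acetoacetyl-CoA thiolase (−0.11, SE 0.034, adjusted p = 0.0089). For fatty acid uptake and activation 2 of 16 were higher and 1 lower, with Acsl6, an acyl-CoA synthetase of neurons and muscle, at 0.64 (SE 0.14, adjusted p = 0.000241). After adding the smooth muscle score to the fit all 3 calls were lost, as were most calls over all genes. Ehhadh was then at −0.11 (adjusted p = 0.647), Acat1 at −0.022 (adjusted p = 0.801) and Acsl6 at −0.091 (adjusted p = 0.71).

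Of 15 lipid droplet genes tested 3 were higher and none lower, led by Dgat1, which makes triglyceride (0.22, SE 0.044, adjusted p = 9.78e-05). Of 11 other PPAR targets 2 were higher, Ephx2 and Creb3l3, a membrane-bound transcription factor of lipid metabolism (0.79, SE 0.19, adjusted p = 0.000759), and 1 was lower. In the opposing pathway, fatty acid synthesis, 3 of 13 were higher and 3 lower, among them Acly, which makes cytosolic acetyl-CoA (−0.37, SE 0.084, adjusted p = 0.000386). With the smooth muscle score in the fit Acly was at −0.054 (adjusted p = 0.782) and Creb3l3 at 0.71 (adjusted p = 0.0795). Both were without a call, like most genes called before, while Dgat1 kept its call at 0.18 (adjusted p = 0.0431).

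The genes most like each member in pattern were sought among the 10332 genes averaging 10 CPM or more, by Pearson's correlation of log2 CPM over the 60 mice, which share treatment, time of day and tissue makeup. Acaa2 was followed most closely by Ech1 (r = 0.899), Vat1 (0.795) and Acadvl (0.792), of which Acadvl, the very long-chain acyl-CoA dehydrogenase, and Ech1, a dienoyl-CoA isomerase placed here in the peroxisomal list, act in fat oxidation themselves. Acadm was followed by Slc16a1 (0.787), a carrier of lactate, short-chain fatty acids and ketone bodies, Gpd1l (0.775) and Ston2 (0.739). The nearest to Angptl4 were Cd36 (0.776), the fatty acid translocase, Lgmn (0.775) and Lipe (0.719), the hormone-sensitive lipase and one of the adipocyte markers.

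Plin2 had the closest neighbours of any member, with Tmem45b (0.900), Otub1 (0.885) and Smpdl3a (0.882). Ephx2 was nearest to Smim24 (0.780), Atp6v1e1 (0.763) and Bnip3 (0.747), and Cpt1a to Wipi2 (0.787), Insr (0.769), the insulin receptor, and Dhx40 (0.765). Pdk4 was nearest to Cacna1h (0.817), a calcium channel, Tmem252 (0.810) and Srgap3 (0.8). Crot, which varied least, had the weakest neighbours, Surf1 (0.645), Atg13 (0.642) and Afm (0.619).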

How the data were processed

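Mid-colon RNA was sequenced from 30 CIA and 30 naïve mice. According to the labels and methods the authors used bcl2fastq 2.17.1.14 to demultiplex, Trimmomatic 0.36 to trim and STAR 2.5.3 to align to mm10, and counted reads per gene; the deposited table holds raw counts per gene, one column per library. Of counts from 1 to 20, 73.95% were even; how pairs of reads were counted is not given in the sources used here, and totals may not be numbers of fragments. Of 27179 gene IDs, 25275 matched a symbol in the RefSeq table; the 1904 others held 0.539% of counts. Groups came from the labels. No pair of libraries was identical.

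Genes were kept by edgeR 4.0.16 filterByExpr over the 12 groups (minimum count 10, total 15), scaled by TMM, and tested in R 4.3.3 with edgeR's quasi-likelihood F test: treatment alone for the pooled comparison, 12 group means for each time and for treatment by time (5 degrees of freedom), and cosine and sine terms by treatment for the difference in rhythm (2 degrees of freedom). Rhythm within a treatment was tested with limma 3.58.1 (trend) on log2 CPM with a prior count of 2, and classes needed a Schwarz weight of 0.6 among 5 models. P-values were adjusted over all 18057 genes at 0.05. The steps were tested on simulated data. Levels per kb used the length of all annotated exons of a gene on GRCm38.p6, overlaps counted once, and not that of its main transcript. Relations used 100000 permutations, two-sided.

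The members and gene lists were chosen with earlier results of these data known. Named genes outside the members were to be the PPAR receptors, the leading genes of each pathway list by pooled p or naïve amplitude, and the 3 closest genes in pattern; of the list genes fewer were named than the rule allows, a narrowing made after their values were seen. Alternatives were DESeq2 1.42.0, limma-voom, other filters, prior counts and scalings, time as 6 levels, single times, a replicate block, and leaving out each library; those that left out 1 library kept the dispersion trend of the fit to 60. Smooth muscle, epithelial and adipocyte scores were also tried as covariates. A skeletal muscle score, the adipocyte score for rhythms, the removal of 2 libraries with skeletal muscle RNA or of 2 ZT4 libraries, and leaving out libraries at single times were added after the data were seen.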

Additional observations from a re-analysis of the deposited data

Results flagged for a closer look

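In 8 of the 96 groups of 5 mice (8 members, 12 groups each), 1 mouse stood so far from the others that its gap to the nearest, divided by the whole range, both on the log2 CPM scale, was above 0.71; chance gives about 1 in 20. For Cpt1a it was Naive ZT16 replicate 4, at 284.2 CPM against 194.6 to 204.8 CPM in the others (gap over range 0.864). The same mouse was highest for Angptl4, at 30.9 CPM against 1.23 to 2.94 CPM (0.734), and it had the highest adipocyte score of its group, 4.94; the part of that RNA was not tested.

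Naive ZT0 replicate 5 was highest for Pdk4, at 103.1 CPM against 5.89 to 12.9 CPM (0.728), and for Acaa2, at 235.5 CPM against 137.1 to 154.0 CPM (0.786); it also had an adipocyte score of 5.16 and a skeletal muscle score of 2.98, whose part was not tested. In the CIA group at the same time the lowest mouse for Pdk4, replicate 3, had 8.85 CPM against 43.3 to 81.6 CPM (0.715).

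The remaining 3 were Acadm in CIA ZT4 replicate 5, at 274.5 CPM against 238.2 to 245.6 CPM (0.785), Crot in CIA ZT8 replicate 1, at 54.4 CPM against 47.4 to 48.8 CPM (0.788), and Ephx2 in Naive ZT4 replicate 4, at 37.5 CPM against 22.1 to 25.7 CPM (0.719).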

How the results depend on the processing

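No member that passed the pooled test turned its direction in any alternative tried, and 0 members were lower in all of them. The count of members rhythmic in CIA mice lay between 5 and 8 and in naïve mice between 3 and 4 in the alternatives other than leaving out 1 library, and between 6 and 8 and between 2 and 4 there. The treatment was spread over 6 times with 5 mice each and tissue makeup varied between mice, which limits both pooled calls and calls at single times. Where a call changed, the cause was not tested unless stated. The low Angptl4 level gave it no value with a filter at a mean of 5 CPM.

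The Cpt1a difference, −0.00027, changed sign in most alternatives without passing the test: 0.0101 with DESeq2, 0.0123 with limma-voom, 0.0330 with a mean of at least 5 CPM, 0.00777 with no filter, 0.00539 with halved counts, and 0.00903, 0.0110, 0.00388 and 0.119 with adipocyte, epithelial, skeletal muscle and smooth muscle scores as covariates. Without ZT0, ZT4, ZT16 or ZT20 it was 0.00243, 0.0313, 0.0363 or 0.00578, without the pair of libraries with the most skeletal muscle RNA 0.0196 and without a pair of ZT4 libraries whose clock genes stood apart 0.00369. Angptl4 changed sign without ZT0 (−0.0738), ZT4 (−0.107) or ZT20 (−0.165) and with the smooth muscle score (−0.218), which also turned Pdk4 (−0.234), Acsl6 (−0.0912) and Cpt1c (−0.0112). Ppara changed sign with limma-voom (0.116) and without ZT12 (0.0431) or ZT16 (0.00708), and Pparg with limma-voom (0.00265); none of these turned values passed the test. With that score Acaa2, Ppard, Slc25a20, Eci1, Ehhadh, Acat1, Acly and Creb3l3 lost their calls. Pdk4 gained a call with limma-voom (0.784, adjusted p = 0.00635) and without the skeletal muscle pair (0.708, adjusted p = 0.0299).

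Of all genes, 375 were higher and 363 lower with the smooth muscle score, against 3179 and 3681; 2186 were lower with a mean of at least 5 CPM, where fewer genes were tested, and 2408 without ZT20. With time as 6 levels 3572 genes were rhythmic in CIA and 4001 in naïve mice, against 5371 and 6663. The number of members higher was 1 with the skeletal muscle score, 1 without ZT20 and 0 without ZT4. In fits to the 10 libraries of a time alone, 0 genes were called at ZT0, ZT4, ZT8 and ZT16 and 768 at ZT12, with 0 members at ZT12 and 2 at ZT20. Without the skeletal muscle pair 2 genes were called at ZT0, 3 at ZT8, 0 at ZT16 and 0 for the difference in rhythm; without the ZT4 pair 2 were called at ZT0, 1969 at ZT4 and 0 at ZT16, with 0 members at ZT20. With limma 0 genes differed in rhythm, against 4 with edgeR.

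The labels give no cages and do not say whether replicate numbers pair the mice. Of 30 pairs with the same number 8 correlated above 0.1 in their deviations (median −0.044, range −0.471 to 0.446), and 4 correlated best with their own number. No pairing was seen in this check, which cannot exclude one because cages are not known. With the replicate block, 1 gene was called at ZT0, 14 at ZT4, 0 at ZT16 and 0 for the difference in rhythm, Acaa2 lost its call (0.168, adjusted p = 0.0578), and with time as a further term Angptl4 was at −0.00511 and Ppara at 0.00535.

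With each library left out in turn the pooled value ran from −0.0148 to 0.0277 for Cpt1a, from −0.0620 to 0.375 for Angptl4 and from −0.0761 to 0.0373 for Ppara. Genes called ran from 0 to 830 at ZT0, 0 to 1098 at ZT4, 0 to 19 at ZT8, 755 to 1995 at ZT12, 0 to 2 at ZT16 and 649 to 2734 at ZT20, and from 0 to 7 for the difference in rhythm. Members called ran from 0 to 4 for higher in CIA, 0 to 1 at ZT4, 0 to 1 at ZT12 and 0 to 2 at ZT20. The number of members higher was 0 without Naive ZT12 replicate 3 and 1 without any one of 14 others: Naive ZT0 replicates 1 and 3, ZT4 replicates 2 and 5, ZT16 replicates 1 and 5 and ZT20 replicates 1, 2 and 3, and CIA ZT4 replicates 1, 3 and 5, ZT8 replicate 3 and ZT16 replicate 4. The Ephx2 call at ZT12 was lost without CIA ZT12 replicate 4 (0.73) or 5 (0.68) or Naive ZT12 replicate 3 (0.67). At ZT4, 1 member passed without CIA ZT4 replicate 4.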
